A study of Mus musculus with 24 samples.

Results

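Of the 24 mouse brain libraries in the series, 8 carry a count column whose number is a multiple of 3. They are called hindbrain-rich here for their RNA of cerebellar genes and, in varying amount, of brainstem genes. The labels name only brain. The set contains 4 libraries coded E4 and 4 coded E3, and the comparison of the codes across all genes is described here. The columns were chosen by their number, which was known to go with high measured levels of Gabra6 and Cbln1, so the level of hindbrain genes in them is a description and not a finding. The choice did not use the E code. Each library also carries a time code. The E3 libraries are E3-05 no. 2, E3-10 no. 1, E3-10 no. 4 and E3-15 no. 3. The E4 libraries are E4-05 no. 3, E4-10 no. 2, E4-15 no. 1 and E4-15 no. 4. Values below are given in that order, E3 first. The labels do not spell out the E codes or the time codes, and they give no strain, age, sex, allele or treatment. The series title concerns ApoE4, microglial lipid handling, AsxL1, LXRα and H3K4me3. All samples are polyA RNA of brain extracted with TRIzol. The titles call the samples biological replicates without saying that each came from a separate animal, so p-values measure the spread between these libraries, which may be partly technical.

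Cerebellar granule cells are the most numerous neurons of the brain and express the GABA-A receptor subunit Gabra6 and the synaptic organizer Cbln1, while Purkinje cells carry the output of the cerebellar cortex. Neurons of the medulla and upper spinal cord keep the Hox code that set their position in the embryo, and many brainstem neurons release glycine. Apolipoprotein E, made mainly by astrocytes and by microglia that respond to damage, carries cholesterol between brain cells. The liver X receptors Nr1h3 (LXRα) and Nr1h2 (LXRβ) are sterol sensors that switch on Apoe, Abca1, Abcg1 and Srebf1. Asxl1 is a chromatin regulator that works with the deubiquitinase Bap1, and H3K4me3 is a histone mark of active promoters that Kmt2 enzymes help to write.

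The 8 libraries held between 39388834 and 65654497 assigned counts. Depth went with the E code: the 4 E4 libraries had 39388834 to 52548461 counts and the 4 E3 libraries 54135369 to 65654497, and the part of this gap in the differences below was not tested beyond the scaling to CPM. Gabra6 reached 407, 89.0, 456 and 365 CPM (counts scaled to the library total with TMM factors) in E3 and 387, 233, 557 and 511 CPM in E4. In the other 16 libraries Gabra6 was at most 4.63 CPM. Cbln1 was 621, 193, 487 and 432 CPM in E3 and 648, 335, 819 and 834 CPM in E4, against at most 47.9 CPM elsewhere. These levels describe the choice of columns. The 2 codes overlapped for both markers. The E3-10 no. 1 library was the lowest for both.

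The libraries differed in what else they contained. The mean of the 14 granule cell genes was 5.89 log2 CPM in E3-10 no. 1 and between 6.94 and 7.98 log2 CPM in the other 7 libraries. The same E3-10 no. 1 library had the highest Slc6a5, the glycine transporter of inhibitory brainstem neurons, at 648 CPM against 78.8 to 259 CPM in the others. Pituitary tissue stood out in E4-10 no. 2, where growth hormone (Gh) reached 6481 CPM and prolactin (Prl) 1052 CPM. The beta-globin gene Hbb-bs, which marks red cells, was 176 CPM in E3-05 no. 2, 46.8 CPM in E4-05 no. 3 and between 5.97 and 30.2 CPM in the rest. Transthyretin (Ttr), made by the choroid plexus, ranged from 308 CPM in E4-10 no. 2 to 2747 CPM in E4-05 no. 3. In a principal component analysis of the 8 libraries the first component held 37.4% of the variance and ran from E3-10 no. 1 (70.2) and E4-10 no. 2 (31.5) to E4-15 no. 1 (-33.8). Among the titled months of these 8 libraries, only March and June held both codes. In the remaining months a difference between months cannot be told apart from one between codes. The labels name no processing batch, so an effect of one was not tested.

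**Figure D1:**
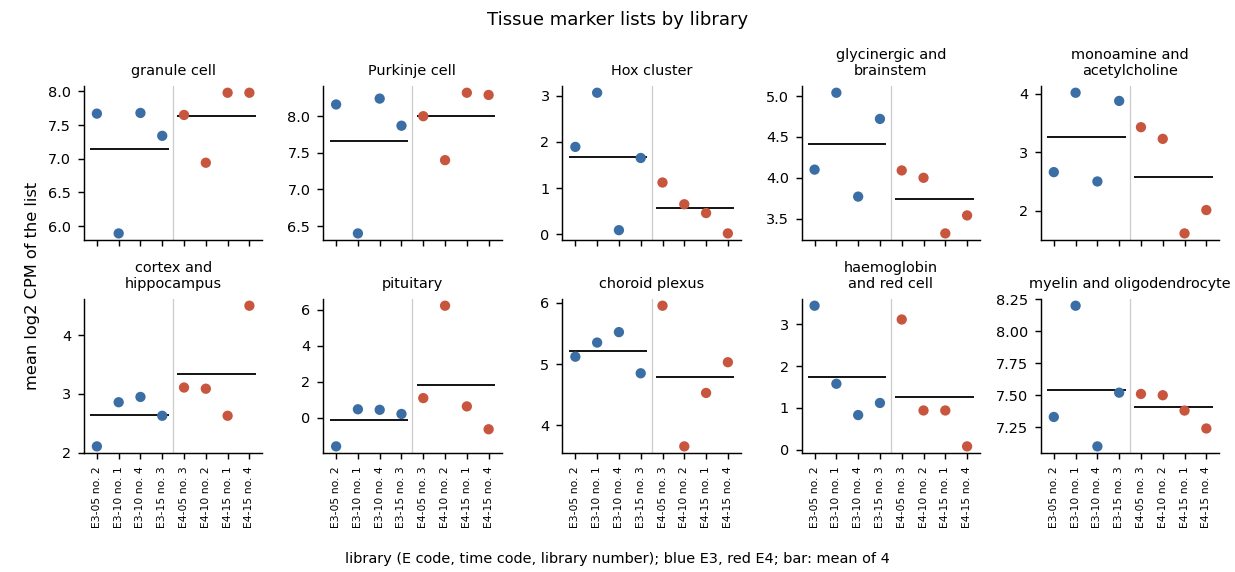
Mean log2 CPM of 10 tissue marker lists in each of the 8 hindbrain-rich libraries, with E3 in blue, E4 in red and a bar at the mean of 4. The granule cell and Purkinje cell lists are lowest in E3-10 no. 1, the pituitary list is highest in E4-10 no. 2, and the Hox list overlaps between codes through E3-10 no. 4.

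Across 19054 genes tested, no gene differed between E4 and E3 in these libraries by edgeR's quasi-likelihood test with the time code as covariate (adjusted p under 0.05, Benjamini-Hochberg; 0 higher and 0 lower, 0% called). The smallest adjusted p was 0.942. At an unadjusted p under 0.05 there were 819 genes, or 4.30% of those tested, of which 424 (2.23%) had higher and 395 (2.07%) lower values in E4. By limma-voom 0 genes passed, and 824 had p under 0.05 before adjustment. DESeq2 called 6 genes in the same design: Gm52669 and Gh higher (0.0105% of genes), and Syn3, A330074K22Rik, TrnM and Sparcl1 lower in E4 (0.0210%). Of all genes tested, 10042 (52.7%) had a log2 fold change above 0 and 9012 (47.3%) below 0.

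None of the genes with the smallest p toward lower values in E4 passed the edgeR threshold. Synapsin III (Syn3), a synaptic vesicle protein, was 45.4, 54.8, 44.4 and 57.4 CPM in E3 and 31.6, 34.2, 36.2 and 36.0 CPM in E4. All 4 E4 values lay below all 4 E3 values. The log2 fold change was -0.58 ± 0.09 (SE), with an adjusted p of 0.942 by edgeR and 0.0103 by DESeq2. Sparcl1 (hevin), a matricellular protein that astrocytes secrete and that promotes synapse formation, was 2696, 2449, 2804 and 2708 CPM in E3 and 1956, 1933, 2083 and 2115 CPM in E4. Its groups did not overlap either, and its log2 fold change was -0.42 ± 0.09, with an adjusted p of 0.942 by edgeR and 0.0191 by DESeq2.

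The transcript A330074K22Rik was 23.9, 27.4, 18.1 and 25.7 CPM in E3 and 12.9, 13.7, 12.3 and 14.2 CPM in E4, a log2 fold change of -0.86 ± 0.15. TrnM, the RefSeq name of the mitochondrial methionine tRNA, was 73.0, 65.8, 57.5 and 79.3 CPM in E3 and 54.9, 44.4, 47.5 and 49.0 CPM in E4, a log2 fold change of -0.55 ± 0.09. DESeq2 gave these adjusted p-values of 0.0103 and 0.0139. Reads on TrnM cannot be told apart here from reads of longer mitochondrial precursors that contain it.

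The other 4 genes leading in this direction were Akap12 (a scaffold for protein kinase A; mean 162 ± 17.6 CPM in E3 and 119 ± 6.77 CPM in E4, SD, n = 4 each), Fyco1 (an adaptor that moves autophagosomes and late endosomes along microtubules; 69.4 ± 6.49 and 52.4 ± 3.40 CPM), Smad9 (a transcription factor of BMP signalling; 62.9 ± 3.08 and 49.8 ± 2.35 CPM) and Cntnap2 (a cell adhesion protein of the axon; 88.2 ± 11.0 and 61.9 ± 8.80 CPM). Their log2 fold changes were -0.46 ± 0.10, -0.42 ± 0.09, -0.34 ± 0.08 and -0.50 ± 0.12 (SE). In each of these 8 genes every E4 library lay below every E3 library, a pattern that 1.96% of all genes tested showed. The genes were picked for their small p, so the absence of overlap adds nothing to it.

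Toward higher values in E4, the transcription factor Sox11, which marks immature neurons, was 5.12, 7.58, 8.69 and 6.51 CPM in E3 and 8.86, 15.3, 8.84 and 8.23 CPM in E4. The groups overlapped and E4-10 no. 2 stood above the rest. Its log2 fold change was 0.69 ± 0.14. Without E3-10 no. 1, E4-10 no. 2 and E3-05 no. 2 together it was 0.18, in a fit without the time code. Cacnb3, an auxiliary subunit of voltage-gated calcium channels, was 58.1, 58.7, 58.2 and 57.2 CPM in E3 and 68.1, 104, 78.1 and 78.8 CPM in E4. The E3 values lay between 57.2 and 58.7 CPM and every E4 value was higher, most of all in E4-10 no. 2. Its log2 fold change was 0.54 ± 0.11. Marcksl1, an actin-binding protein abundant in developing neurons, was 42.8, 60.0, 51.0 and 57.5 CPM in E3 and 56.4, 77.0, 69.6 and 77.2 CPM in E4, a log2 fold change of 0.41 ± 0.09.

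The unnamed gene model Gm52669, which DESeq2 called (adjusted p 0.0470; edgeR 0.942), was 6.07, 4.50, 4.75 and 2.97 CPM in E3 and 8.69, 8.75, 7.89 and 5.50 CPM in E4. The 2 codes overlapped through E3-05 no. 2 and E4-15 no. 4. The log2 fold change was 0.90 ± 0.19. Dok4, a docking protein of receptor tyrosine kinases (9.87 ± 0.939 CPM in E3 and 13.5 ± 0.853 CPM in E4, SD, n = 4 each), and Mtln, a micropeptide of the mitochondrial inner membrane (8.37 ± 0.912 and 12.1 ± 1.98 CPM), did not overlap. Their log2 fold changes were 0.48 ± 0.11 and 0.56 ± 0.13 (SE). The uncharacterised transcripts LOC118568293 and 9630013A20Rik had log2 fold changes of 1.20 ± 0.26 and 0.74 ± 0.17. Across all genes, 1.75% had every E4 library above every E3 library.

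**Figure D2:**
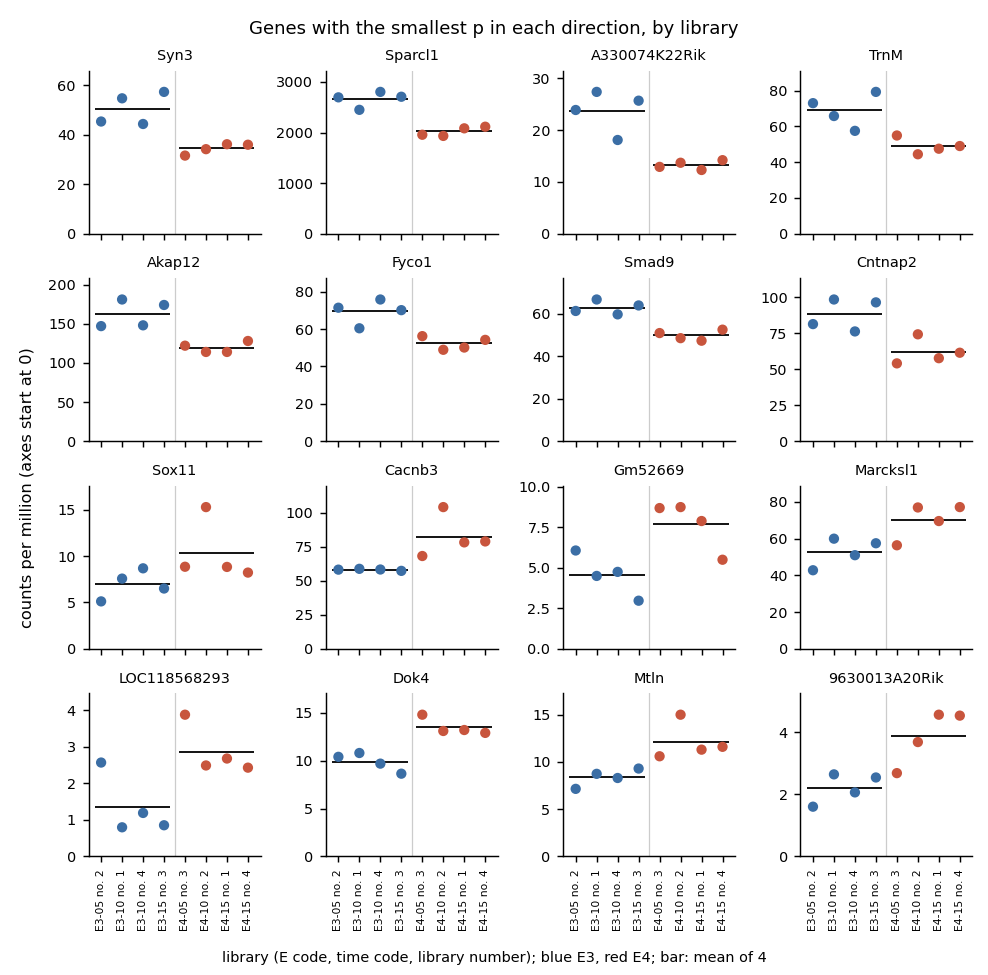
CPM of the 8 genes with the smallest p toward lower values in E4 (upper 2 rows) and the 8 toward higher values (lower 2 rows) in each hindbrain-rich library, with E3 in blue, E4 in red and a bar at the mean of 4. Syn3 lies between 44.4 and 57.4 CPM in E3 and between 31.6 and 36.2 CPM in E4, while Sox11 overlaps and is highest in E4-10 no. 2.

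No difference between the codes was detected in the genes of the series title. Apoe was 998, 876, 1039.6 and 939.7 CPM in E3 and 930.0, 872, 862 and 909.9 CPM in E4. The codes overlapped, and the log2 fold change was -0.11 ± 0.09 with an edgeR adjusted p of 0.946. Asxl1 was 59.5, 58.5, 55.8 and 57.5 CPM in E3 and 56.0, 60.0, 59.6 and 57.8 CPM in E4, with all 8 libraries in a narrow band. Its log2 fold change was 0.01 ± 0.07 (edgeR adjusted p 0.993). Nr1h3, which encodes LXRα, was low at 8.26, 5.17, 8.33 and 7.22 CPM in E3 and 6.58, 6.09, 7.87 and 6.83 CPM in E4. Its log2 fold change was -0.13 ± 0.19 (edgeR adjusted p 0.970).

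Among the partners, the sterol exporters Abca1 and Abcg1 had log2 fold changes of 0.03 ± 0.13 and 0.09 ± 0.10. Nr1h2 stood at -0.06 ± 0.08 and the lipid synthesis regulator Srebf1 at -0.12 ± 0.09. The chromatin partners Asxl2 (0.02 ± 0.12), Asxl3 (-0.15 ± 0.13) and Bap1 (0.04 ± 0.07) and the H3K4 methyltransferases Kmt2a (-0.17 ± 0.17) and Kmt2d (0.04 ± 0.19) had standard errors close to or above the size of their fold changes. The microglial lipid receptor Trem2 was between 3.72 and 7.12 CPM in E3 and between 4.81 and 5.35 CPM in E4, a log2 fold change of 0.08 ± 0.22. Lipoprotein lipase (Lpl) was 3.25, 11.0, 3.17 and 4.43 CPM in E3 and 3.83, 7.60, 2.35 and 3.93 CPM in E4, highest in the E3-10 no. 1 and E4-10 no. 2 libraries and not apart by code (-0.08 ± 0.39). For none of these 14 genes did edgeR or DESeq2 call a difference. RNA of whole tissue cannot show whether a change confined to microglia occurred.

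**Figure D3:**
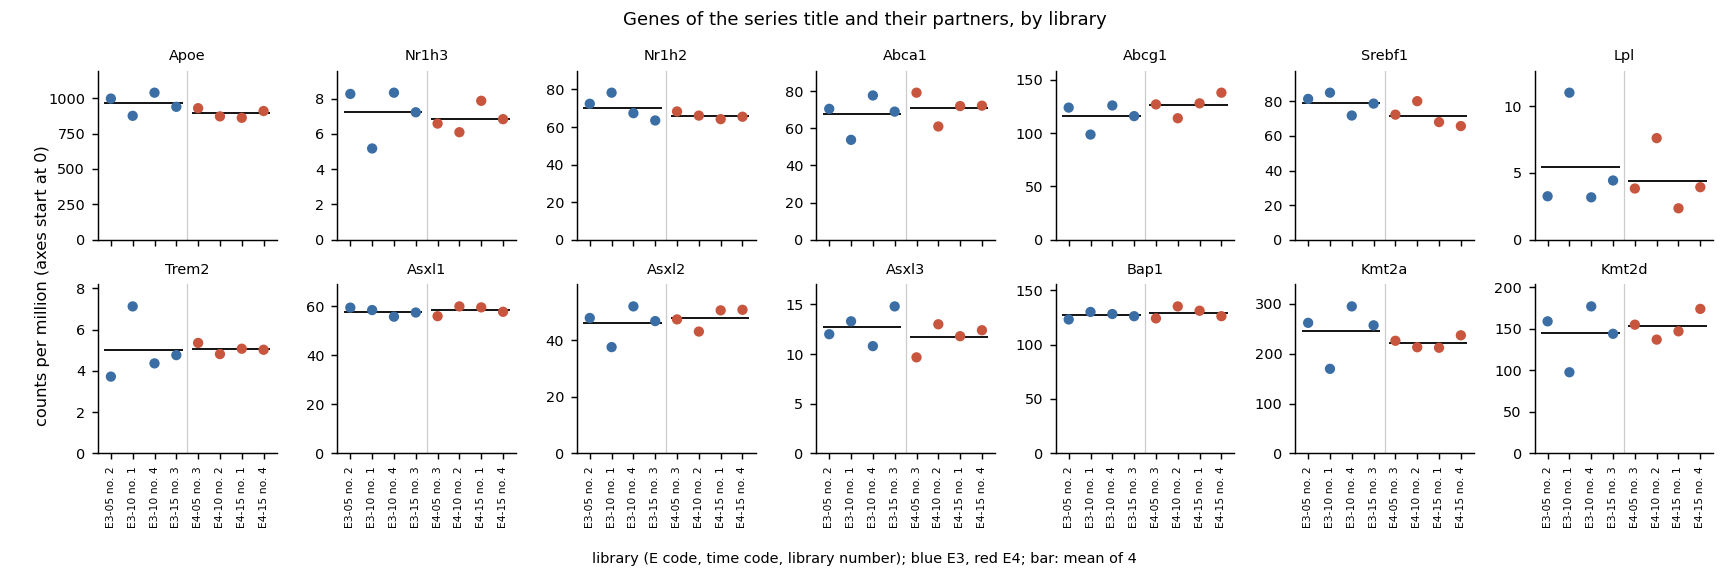
CPM of 14 genes of the series title and their partners in each hindbrain-rich library, with E3 in blue, E4 in red, a bar at the mean of 4 and axes from 0. Every gene overlaps between the codes, and for Kmt2a, Kmt2d, Abca1, Asxl2 and Nr1h3 the lowest value is that of E3-10 no. 1.

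Among the neuronal lists the Hox genes had the median farthest from 0. Of 22 Hox genes listed, 21 were tested (Hoxb1 was too low), and all 21 had a log2 fold change below 0, with a median of -1.45 against 0.01 for all genes. None passed the edgeR threshold, and 11 of 21 were at an unadjusted p under 0.05 toward lower values, where the background was 2.07%. Hoxa4 was 7.39, 16.6, 1.47 and 5.31 CPM in E3 and 2.26, 2.42, 0.974 and 1.42 CPM in E4, with a log2 fold change of -1.94 ± 0.65. Hoxb5, the most abundant of those at an unadjusted p under 0.05, was 29.3, 49.8, 6.46 and 15.4 CPM in E3 and 9.62, 7.13, 5.84 and 5.99 CPM in E4, a log2 fold change of -1.66 ± 0.57. Hoxc4 (-1.83 ± 0.64) and Hoxa2 (-1.54 ± 0.51) had the same order of the E3 libraries. In all 4 genes E3-10 no. 4 lay within or below the E4 range, so the codes overlapped, and E3-10 no. 1 was the highest. No Hox gene had all E4 libraries below all E3 libraries.

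The mean of the 21 genes was 1.89, 3.06, 0.09 and 1.65 log2 CPM in E3 and 1.12, 0.65, 0.46 and 0.02 log2 CPM in E4. Leaving out E3-10 no. 1 brought the median log2 fold change to -0.85. The count of 11 genes at an unadjusted p under 0.05 rested on single libraries and on the tool: it was 0 without E3-15 no. 3, 1 without E4-10 no. 2, 3 without either library of time code 05, 16 without E3-10 no. 4, and 0 by limma-voom. Leaving out E3-10 no. 1, E4-10 no. 2 and E3-05 no. 2 together brought the median to -0.62, with 16 genes below 0, 5 above, and 1 at an unadjusted p under 0.05. That fit had no time code as covariate. In tissue RNA, fewer cells of a type and less RNA per cell cannot be told apart, and the amount of medulla in each dissection was not measured apart from these genes.

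**Figure D4:**
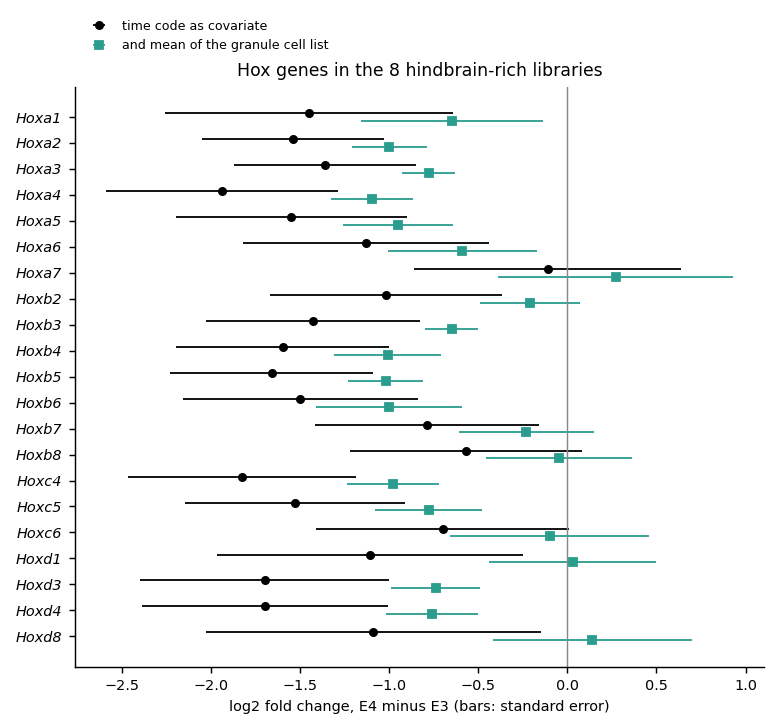
Log2 fold change (E4 minus E3, bars are standard errors) of 21 Hox genes in the 8 libraries, with the time code as covariate (black circles) and with the mean of the granule cell list added (green squares). All 21 black circles lie left of 0, and the median moves from -1.45 to -0.74 when the granule cell mean is added.

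Other neurons of the brainstem were displaced the same way with less uniformity. In the list of glycinergic and brainstem neurons, 12 of 14 genes lay below 0 and 2 above, with a median of -0.87, and 2 of 14 were at an unadjusted p under 0.05 toward lower values (2.07% of all genes). Without E3-15 no. 3 the median was -0.18, and without E3-10 no. 4 it was -1.03 with 9 genes below that p. Of all 19405 genes tested without E3-10 no. 4, 2740 were below that p. The glycine receptor subunit Glra1 was 37.5, 102, 22.3 and 46.6 CPM in E3 and 19.4, 28.5, 10.1 and 11.4 CPM in E4, a log2 fold change of -1.45 ± 0.45. The E3-10 no. 4 library fell inside the E4 range. Slc6a5 was 211, 648, 103 and 259 CPM in E3 and 148, 187, 82.9 and 78.8 CPM in E4 (-1.13 ± 0.51). Monoamine and acetylcholine neuron genes were split, with 9 of 14 below 0, a median of -0.28, and a median of 0.79 without E3-15 no. 3.

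Neurofilament genes, which are high in large myelinated axons, were like Slc6a5 highest in E3-10 no. 1 and next in E3-15 no. 3. Nefm was 543, 1034, 387 and 708 CPM in E3 and 376, 418, 257 and 291 CPM in E4, a log2 fold change of -0.93 ± 0.30, and Nefh stood at -0.71 ± 0.28. With the dendritic protein Map2 (-0.22 ± 0.09) these were the 3 of 14 pan-neuronal genes at an unadjusted p under 0.05 toward lower values (2.07% of all genes). That count was 0 without E3-15 no. 3 and 8 without E3-10 no. 4, where 2740 of all 19405 genes tested were at that p. The pan-neuronal list as a whole had 11 of 14 genes below 0 and a median of -0.15.

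The cerebellar lists had medians near 0 that moved with single E3 libraries. Of 14 granule cell genes, 13 lay above 0 with a median of 0.17 and none was at an unadjusted p under 0.05. Without E3-10 no. 4, 13 of 14 genes were at an unadjusted p under 0.05 toward higher values. In that fit 2740 of all 19405 genes tested were at that p. The median of the granule cell genes was then 0.56. It was -0.06 without E3-15 no. 3 and -0.01 without E3-10 no. 1. Of 12 Purkinje cell genes, 8 lay above 0 with a median of 0.04. Without E3-10 no. 4 all 12 lay above 0 (median 0.41, 5 at an unadjusted p under 0.05), and without E3-15 no. 3 all 12 lay below 0 (median -0.14). The Purkinje cell gene Pcp2 was 117, 22.3, 119 and 90.5 CPM in E3 and 116, 59.4, 136 and 134 CPM in E4 (0.11 ± 0.48). The 8 libraries had the same order as for Gabra6 (0.09 ± 0.47).

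The pituitary, choroid plexus and red cell lists had medians away from 0, and for pituitary and choroid plexus the median moved with the E4-10 no. 2 library. All 7 tested pituitary genes (of 10 listed) lay above 0 with a median of 2.51, and the median was 0.36 without E4-10 no. 2. Gh was 0.639, 35.8, 13.3 and 2.92 CPM in E3 and 65.0, 6481, 20.4 and 3.75 CPM in E4, and the 2 codes overlapped. Its log2 fold change was 5.68 ± 1.38 (adjusted p 0.942 by edgeR and 0.0470 by DESeq2) and 3.63 without E4-10 no. 2. All 14 choroid plexus genes lay below 0 with a median of -0.39 and none at an unadjusted p under 0.05. Without E4-10 no. 2 that median was 0.36. Ttr (-0.45 ± 0.60) and coagulation factor V, F5 (-0.73 ± 0.69), overlapped between the codes. The red cell list had 5 of 7 genes below 0 and a median of -0.74, between -0.95 and -0.44 when 1 library was left out. Without E3-10 no. 1, E4-10 no. 2 and E3-05 no. 2 together, all 7 were above 0 with a median of 0.97. That fit had no time code as covariate. Its only library of time code 05 was E4-05 no. 3, so code and time code cannot be told apart in this value. The globin gene Hba-a2 was 11.1, 2.87, 1.02 and 1.78 CPM in E3 and 6.78, 1.21, 1.01 and 0.576 CPM in E4.

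Forebrain genes were present in all 8 libraries. Scaled with all 24 libraries, the mean of the cortex and hippocampus list was between 2.06 and 4.45 log2 CPM here and between 4.36 and 6.67 log2 CPM in the other 16. On the same scale the thalamus list was between 3.76 and 5.18 log2 CPM here and between 2.66 and 6.58 in the others. The midbrain list was between 1.22 and 3.18 log2 CPM here and between -1.56 and 2.78 in the others, so both lists overlapped. In the cortex and hippocampus list, 12 of 14 genes lay above 0 with a median of 0.48. The mean of the list was highest in E4-15 no. 4 at 4.50 log2 CPM, against 2.11 to 3.11 log2 CPM in the other 7, and without that library the median was 0.18. In the striatal list 7 of 11 genes lay above 0, and the dopamine receptor Drd1 was between 0.851 and 1.52 CPM in E3 and between 1.10 and 2.71 CPM in E4 (0.71 ± 0.23).

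Microglial genes, the cell type of the series title, lay close to 0. Of 14 homeostatic microglia genes, 9 were below 0 and 5 above, with a median of -0.08. The 1 gene at an unadjusted p under 0.05 toward higher values (2.23% of all genes) was Fcrls, a scavenger receptor of resident microglia. Fcrls was 6.43, 9.73, 10.9 and 6.63 CPM in E3 and 10.1, 10.3, 10.3 and 12.2 CPM in E4 (0.46 ± 0.18). None of the list was at that p without E3-05 no. 2, E4-05 no. 3, E4-15 no. 1, E3-15 no. 3 or E4-15 no. 4, each left out in turn. Of 25 disease-associated microglia genes, 16 were below 0 with a median of -0.07 and none at an unadjusted p under 0.05. The mean of that list was between 4.27 and 4.71 log2 CPM in E3 and between 4.21 and 4.61 log2 CPM in E4. Astrocyte genes had 12 of 16 members below 0 (median -0.10) and reactive astrocyte genes 11 of 17 (median -0.03).

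Myelin and oligodendrocyte genes had 15 of 20 members below 0 and a median of -0.12, and a median of 0.09 without E3-10 no. 1, where the list was highest at 8.20 log2 CPM. Among oligodendrocyte precursors, Gpr17, a receptor of cells about to differentiate, was between 27.5 and 52.0 CPM in E3 and between 39.0 and 54.7 CPM in E4 (0.30 ± 0.13). Complement genes had 11 of 15 members below 0 and a median of -0.15, with 2 at an unadjusted p under 0.05 toward lower values (2.07% of all genes). None was at that p without E4-10 no. 2, E4-15 no. 1, E3-15 no. 3 or E4-15 no. 4, each left out in turn. Complement factor B (Cfb), of the alternative pathway, was 4.07, 3.92, 4.57 and 4.28 CPM in E3 and 3.04, 3.31, 3.08 and 3.33 CPM in E4, without overlap (-0.40 ± 0.15). C4b, of the classical pathway, was 22.9, 35.5, 17.4 and 25.9 CPM in E3 and 20.2, 19.2, 12.0 and 10.8 CPM in E4, with overlap (-0.66 ± 0.26).

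Lipid genes differed little and in both directions. In the list of LXR receptors and targets, 10 of 16 genes lay below 0 with a median of -0.05. The retinoid receptor Rxrb, a partner of LXR, was 51.4, 52.7, 51.9 and 49.6 CPM in E3 and 58.1, 57.4, 60.7 and 60.9 CPM in E4, without overlap and with a log2 fold change of 0.20 ± 0.07 (edgeR adjusted p 0.942). The stearoyl-CoA desaturase Scd1, an LXR target, was 402, 627, 411 and 489 CPM in E3 and 354, 430.2, 361 and 349.7 CPM in E4 (-0.32 ± 0.14). Apod, a lipid carrier of glia, was 298, 389, 285 and 288 CPM in E3 and 307, 228, 232 and 222 CPM in E4 (-0.32 ± 0.14). Both overlapped between codes and were highest in E3-10 no. 1, the library with the highest myelin list.

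In the fatty acid and lipid droplet list 22 of 31 genes lay below 0 with a median of -0.06. The 4 at an unadjusted p under 0.05 (4.30% of all genes), of which none was left without E3-15 no. 3, were split, with the droplet coat protein Plin4 (-0.67 ± 0.22) and the acyl-CoA dehydrogenase Acadl (-0.23 ± 0.09) lower in E4, and the radial glia fatty acid carrier Fabp7 (0.44 ± 0.17) and the monoglyceride lipase Mgll (0.31 ± 0.12) higher. Cholesterol synthesis genes had 18 of 25 members below 0, a median of -0.06 and none at an unadjusted p under 0.05. Without E3-10 no. 1 the median of these genes was 0.04 with 15 above 0. With the granule cell mean as covariate it was 0.06 with 17 above 0. Lysosome genes had 18 of 20 below 0 with a median of -0.09.

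Chromatin lists gave no gene at an unadjusted p under 0.05 (4.30% of all genes), which for lists this short is close to that share. The Asxl and BAP1 complex had 5 of 11 genes above 0 and 6 below, and the H3K4 methylation list 9 of 19 above and 10 below. Polycomb genes had 14 of 17 members above 0 with a median of 0.11. With the granule cell mean as covariate, 2 of 11, 4 of 19 and 2 of 17 genes of these lists were at that p toward lower values (6.00% of all genes). In the polycomb list 1 gene was at that p toward higher values (4.92%). The H3K4 mark itself was not measured in these RNA libraries.

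Genes of translation and stress were displaced by small amounts. Cytosolic ribosome genes had 20 of 24 members above 0 with a median of 0.13. Without E4-10 no. 2 there were 14 above and 10 below (median 0.05, none at an unadjusted p under 0.05). In all 8 libraries Rps14 (0.27 ± 0.10) and Rps18 (0.22 ± 0.09) were the 2 at an unadjusted p under 0.05 toward higher values (2.23% of all genes). The cytosolic chaperone Hspa8 was 1951, 2066, 2058 and 2125 CPM in E3 and 1569.7, 1832, 1618 and 1688 CPM in E4, without overlap, at -0.28 ± 0.08. The chaperone list as a whole had 14 of 20 genes below 0 and a median of -0.03.

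Immediate early genes, which neuronal activity induces, had 12 of 14 members above 0 with a median of 0.21. Ier2 was 15.3, 11.0, 14.7 and 11.0 CPM in E3 and 21.3, 16.2, 16.4 and 15.0 CPM in E4 (0.44 ± 0.13), and the lowest E4 value lay just under the highest E3 value. Without the 3 libraries named above, and in a fit without the time code, the median of this list was -0.24. Genes of the glucocorticoid response had 12 of 13 members below 0 and a median of -0.15, with the EGF receptor inhibitor Errfi1 at -0.25 ± 0.10. Interferon response genes (13 of 27 above 0, median -0.02), antigen presentation genes (10 of 17 above 0, median 0.04), nuclear oxidative phosphorylation genes (9 of 20 above 0, median -0.05) and amyloid processing genes (7 of 15 above 0) were near balance.

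**Figure D5:**
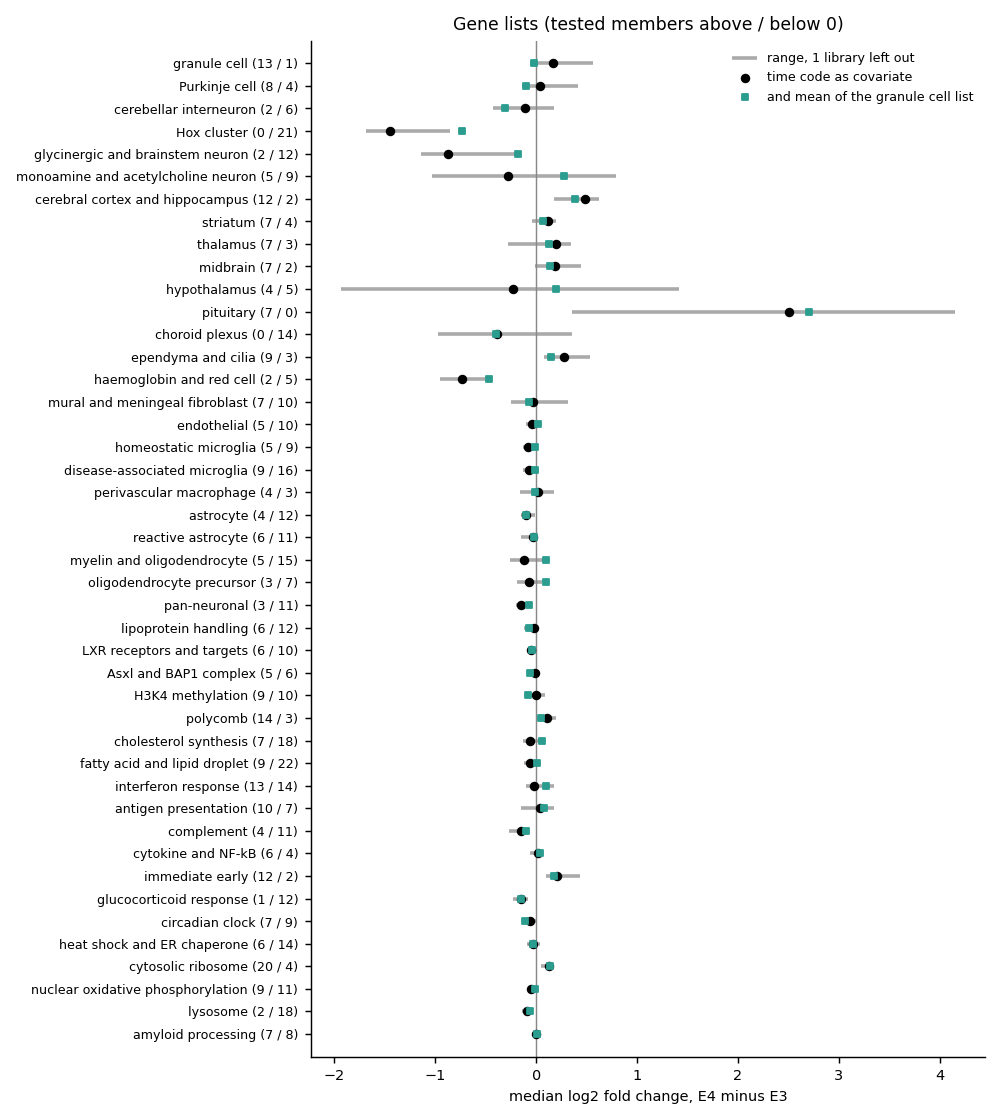
Median log2 fold change (E4 minus E3) of 44 gene lists, with the time code as covariate (black circles), with the mean of the granule cell list added (green squares), and the range of medians when 1 library is left out (grey bars). Numbers in brackets count tested members above and below 0. Most non-neuronal lists lie close to 0, while the Hox, brainstem, pituitary, hypothalamus and choroid plexus lists are displaced or have wide bars.

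Adding the mean of the granule cell list to the model as a measure of tissue composition lowered the spread between libraries, from a biological coefficient of variation of 21.7% to 15.4%. No gene passed the threshold, with a smallest edgeR adjusted p of 0.218, and 2082 genes were at an unadjusted p under 0.05 (938 higher, 4.92%, and 1144 lower, 6.00%). The Hox median moved to -0.74, with 18 of 21 genes below 0 and 12 at an unadjusted p under 0.05. The brainstem neuron median moved to -0.18, with 13 of 14 genes below 0 and 4 at an unadjusted p under 0.05 toward lower values. All 12 Purkinje cell genes lay below 0 (median -0.10), 5 of them at that p. The monoamine and acetylcholine neuron median moved to 0.28 and the myelin and oligodendrocyte median to 0.10. In the ribosome list 12 of 24 genes were at an unadjusted p under 0.05 toward higher values, against 2 before. The leading genes kept their size: Syn3 was -0.53, Sparcl1 -0.45, Cacnb3 0.54 and Sox11 0.68. With 8 libraries and this added term 3 residual degrees of freedom were left.

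Along the time codes, several of the genes that DESeq2 called were genes of red cells. No gene passed the edgeR threshold between time codes 15 and 05 (0% called; 435 genes, 2.28%, at an unadjusted p under 0.05), and by limma-voom 0 passed (435 before adjustment). DESeq2 called 7 genes, all lower at time code 15 (0.0367%): the globin genes Hba-a1, Hba-a2, Hbb-bs and Hbb-bt, the haem synthesis enzyme Alas2, and the neutrophil proteins Lcn2 and Ngp. Hba-a2 was 11.1 and 6.78 CPM in the 2 libraries of time code 05, 2.87, 1.02 and 1.21 CPM at time code 10, and 1.78, 1.01 and 0.576 CPM at time code 15. Its log2 fold change from 05 to 15 was -2.90 ± 0.44, with an edgeR adjusted p of 1.00 and a DESeq2 adjusted p of 2.09e-06. Lcn2 was 4.52 and 5.03 CPM at time code 05, between 1.87 and 3.12 CPM at time code 10, and between 0.597 and 1.28 CPM at time code 15 (-2.50 ± 0.35). In both genes the 2 libraries of time code 05 lay above the other 6. Without E3-05 no. 2, which held the most blood RNA, the log2 fold changes were -3.00 and -2.87. How much blood remained in each tissue sample was not measured in any other way.

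Between time codes 10 and 05, edgeR called 0 genes (0%; 715 genes, 3.75%, at an unadjusted p under 0.05), limma-voom 0 (800 before adjustment) and DESeq2 6, all lower at time code 10 (0.0315%). In order of the DESeq2 adjusted p these were Alas2, Hba-a2, Hbb-bt, the interferon-inducible gene Mndal, Ngp and the gene model LOC115490344. The edgeR log2 fold change was -2.53 ± 0.39 for Alas2, -2.53 ± 0.43 for Hba-a2, -1.26 ± 0.22 for Mndal and -2.91 ± 0.55 for LOC115490344. Without E3-10 no. 4, edgeR called 592 genes (169 higher, 423 lower). Time code 10 was then represented only by E3-10 no. 1 and E4-10 no. 2, the libraries with the least granule cell RNA.

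Whether the E4 minus E3 difference was particular to the hindbrain-rich libraries was tested as an interaction over all 24 libraries and 20437 genes. No gene passed the edgeR threshold (0% called; 853 genes, 4.17%, at an unadjusted p under 0.05), nor did any by DESeq2 (993 before adjustment) or limma-voom (943). Syn3 had the smallest p: the difference was -0.58 in the hindbrain-rich fit and 0.04 in the other 16 libraries, where Syn3 ranged from 28.5 to 39.7 CPM, and the interaction was -0.62 ± 0.14 with an edgeR adjusted p of 1.00. Pex6, a peroxisome assembly factor, was 46.8, 48.8, 49.8 and 44.6 CPM in E3 and 57.4, 57.9, 54.9 and 53.9 CPM in E4, against 51.2 to 60.0 CPM in the other 16 libraries, with an interaction of 0.30 ± 0.07 (edgeR adjusted p 1.00). The pituitary hormone Fshb (13.10 ± 3.08) was 39.0 CPM in E4-10 no. 2 and at most 0.491 CPM in the other 7 hindbrain-rich libraries. The low-count gene model Gm40007 was at most 0.260 CPM in the 8. No difference between the codes was thus shown to be particular to hindbrain-rich tissue.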

How the data were processed

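The authors deposited 1 table of raw counts per gene (40836 genes, 24 libraries). Reads were processed with HISAT2 2.1.0 and featureCounts 2.0.6 on build mm39, per the submitters' processing notes; strand handling is not given in the sources used here. Among deposited counts of 1 to 19, even values are in excess, so read pairs may be counted as 2. Columns were matched to samples by the column number in the labels, and the E and time codes come from the library names. Counts of the 8 libraries were filtered with filterByExpr, scaled with TMM and tested with edgeR 4.0.16 (R 4.3.3; quasi-likelihood, two-sided, Benjamini-Hochberg) with the time code as a factor, which left 4 residual degrees of freedom. DESeq2 1.42.0 and limma 3.58.1 (voom) were alternatives. SE is the absolute log2 fold change divided by the square root of F. CPM use TMM-scaled totals, and list means use log2 CPM with a prior count of 2. Counting error is small at these depths, and the number of libraries limits the precision. Named genes were up to 8 per direction with the smallest p among those with a mean of at least 1 CPM, the title genes with partners, tissue indicators, and up to 4 genes per list and per other comparison. The libraries, genes and 45 lists were chosen with earlier results of these data known. A sex check list (Xist and genes of the Y chromosome) gave the same pattern in all 8 libraries. The pipeline was tested on simulated data. Some genes that the naming rule picks are not reported here.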

Additional observations from a re-analysis of the deposited data

Results flagged for a closer look

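Dixon's test in the groups of 4 libraries marked 18 of 240 gene or list values as far from the other 3 (7.50%, where chance gives about 5%), and 7 of the 18 were in E4-10 no. 2. In that library Gh (6481 CPM), Prl (1052 CPM), Lhb (25.4 CPM), Sox11 (15.3 CPM), Scd1 (430.2 CPM) and the LXR receptor and target list (mean 6.35 log2 CPM) were the highest of E4, and the cerebellar interneuron, unipolar brush cell and Bergmann glia list was the lowest (4.01 log2 CPM). E3-10 no. 1 was apart from the other E3 libraries for Lpl (11.0 CPM), Apod (389 CPM) and the complement list (3.48 log2 CPM). E4-05 no. 3 was the highest of E4 for Dok4 (14.8 CPM), Hba-a2 (6.78 CPM) and Apod (307 CPM). E3-05 no. 2 was the highest of E3 for Hbb-bs (176 CPM) and the lowest for the pituitary list (-1.58 log2 CPM). E3-10 no. 4 was the highest of E3 for Fabp7 (36.6 CPM) and the astrocyte list (8.45 log2 CPM), and E4-15 no. 4 the highest of E4 for Fcrls (12.2 CPM).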

How the results depend on the processing

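For E4 minus E3, edgeR called 0 genes with RLE or upper-quartile factors, a stricter filter (1 CPM in 4 libraries), no time covariate or the time code as a number. It also called 0 with the granule cell mean as covariate, halved counts, all 24 libraries in 1 fit or an adjusted p under 0.10. The same held without E3-10 no. 1, E4-10 no. 2 and E3-05 no. 2 together (chosen after seeing the data, and fitted without the time code). Without a filter it called 3 genes, all of the pituitary (Fshb, Pou1f1 and Ghrhr, higher in E4). DESeq2 called 6 here, 7 between time codes 15 and 05 and 6 between 10 and 05. With the titled month in place of the time code, which left 1 residual degree of freedom, 3 genes were lower in E4 (Slc6a5, Lamp5 and Glra1). Leaving out 1 library gave 0 to 2 genes for E4 minus E3 (2 without E3-10 no. 4: Hoxc4 lower, the pseudogene Tmem181b-ps higher), 0 to 592 for time codes 10 and 05, 0 for 15 and 05, and 0 to 1 for the difference from the other libraries (Dmrta2, without E3-15 no. 3). The labels do not say what a library number marks. Same-numbered libraries did not deviate together, with a median correlation of -0.239 over 4 pairs (-0.397 to 0.204). The median over the 12 other pairs of an E3 and an E4 library was 0.068. With the replicate block 0 genes passed (469 at p under 0.05 before adjustment). The cause of these shifts was not tested.

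Some genes changed sign, all of them short of the threshold. With the granule cell mean, Asxl2 was -0.05, Abca1 -0.04, Kmt2d -0.06, Lpl 0.31, Gabra6 -0.11 and Pcp2 -0.09. With the titled month, Nr1h3 was 0.08, Kmt2a 0.11 and Trem2 -0.25, and with limma-voom Lpl was 0.05. Without the 3 libraries together and without the time code, Bap1 was -0.01, Nr1h2 0.01, Kmt2d -0.02, Ttr 0.25, F5 0.02, Hba-a2 0.97 and Hbb-bs 0.90. Leaving out 1 library gave -0.03 to 0.04 for Asxl1, -0.04 to 0.10 for Asxl2, -0.03 to 0.13 for Abca1, -0.07 to 0.20 for Kmt2d, -0.10 to 0.26 for Trem2, -0.30 to 0.22 for Lpl, -0.17 to 0.61 for Gabra6, -0.15 to 0.64 for Pcp2, -1.23 to 0.41 for Ttr, -1.57 to 0.22 for F5 and -0.13 to 0.93 for the fibroblast collagen Col3a1. The 16 leading genes kept their sign in every alternative run. They were picked for their small p in these same libraries, so this is no separate evidence for them.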

Other observations

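Midbrain and hypothalamic genes differed between single libraries. The dopamine transporter Slc6a3 was 0.426, 0.992, 1.50 and 26.0 CPM in E3 and 2.92, 65.8, 0.608 and 21.1 CPM in E4, so 1 E3 and 2 E4 libraries held dopamine neuron RNA. The midbrain list had 7 of 9 tested genes above 0 (median 0.19), the hypothalamus list 4 of 9 (median -0.23; -1.93 without E4-10 no. 2 and 1.42 without E3-15 no. 3) and the thalamus list 7 of 10 (median 0.20; -0.28 without E4-10 no. 2). Corticotropin-releasing hormone (Crh) was highest in E3-10 no. 1 at 26.2 CPM, the library with the most Hox RNA, and between 0.556 and 8.62 CPM in the others. The mean of the hypothalamus list was 0.35 log2 CPM in that library, against 2.47 in E4-10 no. 2 and 1.48 in E3-15 no. 3. Crh was thus not highest where the hypothalamus list was highest.

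Vessel, barrier and clock genes were near balance between the codes. Endothelial genes had 5 of 15 members above 0 (median -0.04), mural and meningeal fibroblast genes 7 of 17 (median -0.03), perivascular macrophage genes 4 of 7 (median 0.02) and circadian clock genes 7 of 16 (median -0.06). Ependymal and cilia genes had 9 of 12 above 0 (median 0.28), lipoprotein handling genes 6 of 18 (median -0.02), cytokine and NF-kB genes 6 of 10 (median 0.02) and the cerebellar interneuron, unipolar brush cell and Bergmann glia list 2 of 8 (median -0.11). The Y-linked gene Ddx3y was between 66.9 and 81.0 CPM and Xist at most 0.147 CPM in all 8 libraries. The clock output gene Dbp was 63.6 and 58.4 CPM in the 2 E4-15 libraries and between 31.6 and 45.1 CPM in the other 6. The pseudogene Tmem181b-ps was 83.6, 34.9, 71.2 and 60.5 CPM in E3 and 175, 59.2, 127 and 126 CPM in E4. It was picked because it passed without E3-10 no. 4, and reads may be shared with related gene copies.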
